A study of Mus musculus with 24 samples.

Results

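Thy1, Nat8l, Cend1, Scrt1 and Nrn1 are 5 neuronal genes whose transcripts were lower in mouse retinas after blast-mediated traumatic brain injury (bTBI) than after sham treatment. They were picked by symbol for being lower in bTBI retinas at 1 week and 5 weeks, or at 5 weeks, so their bTBI and sham levels are given here as a description, without a test. All 5 were measured at both timepoints, out of 16387 genes measured at either. The genes had been grouped as lying outside the classic markers of retinal ganglion cells (RGCs), but Thy1 does not: the study counts it among its pan-RGC markers. RNA of 24 retinas from male C57BL/6J mice was sequenced, with 6 bTBI and 6 sham retinas at each timepoint. bTBI mice, anesthetized and 13 to 17 weeks old, received a 20 PSI overpressure wave to the left side of the head in an enclosed chamber, and the retina of the eye facing the blast was collected 1 week (8 days in the sample labels) or 5 weeks later. Sham mice went through the same handling without the blast. The labels name no genetic change, and each retina came from a different mouse. The labels name RGCs as the cell type, but the tissue was whole retina: summed transcripts of 8 rod genes lay between 77388 and 91328 CPM in bTBI retinas and between 71009 and 92888 CPM in sham retinas at 1 week.

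RGCs are the output neurons of the retina, and their axons form the optic nerve. Thy1 is a glycoprotein of the immunoglobulin superfamily that a lipid (GPI) anchor holds on the surface of neurons, and in the retina it is known chiefly from RGCs. Nrn1 (neuritin) is a second GPI-anchored protein, induced by neuronal activity, that promotes neurite growth and neuronal survival. Nat8l is the neuronal enzyme that makes N-acetylaspartate (NAA) from aspartate and acetyl-CoA. Scrt1 is a zinc finger repressor of the Snail and Scratch family found in neurons, and Cend1 is a membrane protein of neurons linked to exit from the cell cycle and to differentiation. In bulk RNA, fewer cells of a type and less RNA per cell cannot be told apart.

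In GRCm38 the genes lie on 5 different chromosomes. Thy1 (ENSMUSG00000032011.5) is on chromosome 9 from 44043384 to 44048579 on the + strand, and Nat8l (ENSMUSG00000048142.9) on chromosome 5 from 33995984 to 34005916 on the + strand. Cend1 (ENSMUSG00000060240.12) is on chromosome 7 from 141426446 to 141429491, Scrt1 (ENSMUSG00000048385.8) on chromosome 15 from 76516203 to 76522499 and Nrn1 (ENSMUSG00000039114.16) on chromosome 13 from 36725361 to 36735131, all on the - strand. The values count reads over whole genes.

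Levels are the deposited CPM-like values, counts of reads per gene scaled by the authors to an effective library size. The values of a retina were whole multiples of 1 step, and the depth taken from that step was 14301989 to 25158638 reads per retina. RNA was extracted with a different kit at each timepoint and each timepoint was tabled on its own, so timepoint and kit cannot be told apart, and levels at 1 week and 5 weeks were not tested against each other. A gene was called where limma on log2(CPM + 1) gave a Benjamini-Hochberg adjusted p under 0.005 over all genes of a timepoint. Some 1 week retinas stood apart in transcripts of other tissue. Of 11 lens genes the summed level was 4208 CPM in bTBI replicate 5 and 8013 CPM in bTBI replicate 6, while the other 4 bTBI retinas had 45.4 to 454 CPM and the sham retinas 10.997 to 766 CPM. Of 3 oligodendrocyte genes the summed level was 3452 CPM in bTBI replicate 3, while the other bTBI retinas had 72.7 to 206 CPM and the sham retinas 64.9 to 74.4 CPM. Of 10 microglial markers, 8 were called higher in bTBI retinas at 1 week (1.27% of all genes were), with sums of 197 to 514 CPM in bTBI retinas and 122 to 186 CPM in sham retinas. At 5 weeks limma called 0 of 9 (0.0126% of all genes were called higher), with 3 at an unadjusted p under 0.05. Among markers of astrocytes and reactive macroglia, 3 of 6 were called higher at 1 week and 0 of 6 at 5 weeks (4 at an unadjusted p under 0.05). The part of these transcripts in the results was not tested.

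Each of the 5 genes was lower in every bTBI retina than in every sham retina, at 1 week and again at 5 weeks. At 1 week the bTBI mean was between 62.5% (Nrn1) and 71.0% (Thy1) of the sham mean, and at 5 weeks between 63.1% (Nrn1) and 76.9% (Nat8l). Over all genes, every bTBI retina lay below every sham retina for 2.25% of 14922 genes at 1 week and 1.75% of 15920 genes at 5 weeks. As a description of the choice and not as a test, all 5 of 5 met the limma call at both timepoints, beside a background of genes called lower of 0.985% at 1 week and 0.823% at 5 weeks. These contrasts chose the genes, so nothing is read from that count. Without the lens-rich bTBI replicates 5 and 6, 2 of 5 met it at 1 week, Nat8l and Cend1. Calls over all genes went from 336 to 112 in that fit, which had fewer retinas. The log2 fold changes were then -0.41 for Thy1, -0.47 for Nat8l, -0.52 for Cend1 and Scrt1 and -0.59 for Nrn1. Without bTBI replicate 3, rich in oligodendrocyte transcripts, they were -0.49, -0.47, -0.55, -0.54 and -0.63 in the order Thy1, Nat8l, Cend1, Scrt1 and Nrn1. In that fit 5 of 5 met the call, with 257 calls over all genes.

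**Figure D1:**
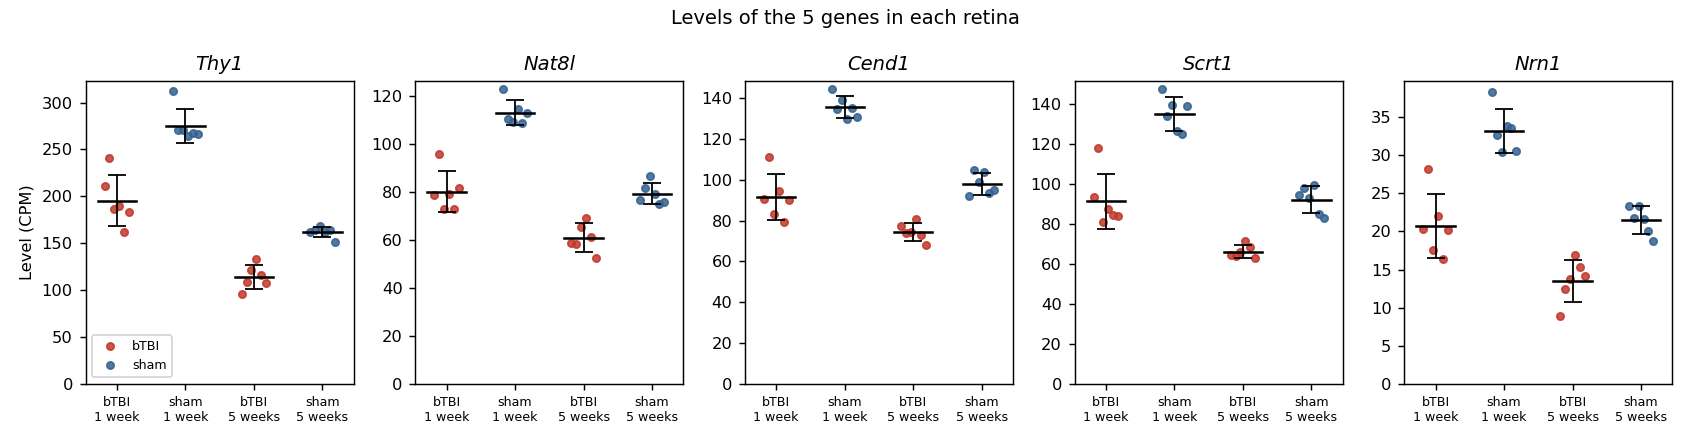
Level in CPM of each of the 5 genes in single retinas (points), for bTBI and sham at 1 week and then at 5 weeks, with the mean and SD of 6 retinas in black; each vertical axis starts at 0. In each panel the 6 bTBI points lie below the 6 sham points of the same timepoint, as for Thy1 at 1 week, with a highest bTBI value of 240.6 CPM and a lowest sham value of 264.3 CPM.

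The 2 surface proteins with a GPI anchor are given first. Thy1 at 1 week had 211.5, 240.6, 186.6, 189.5, 162.2 and 182.8 CPM in bTBI retinas 1 to 6, against 312.2, 270.5, 270.7, 264.3, 267.7 and 266.4 CPM in sham retinas 1 to 6. At 5 weeks it had 95.3, 108.3, 121.8, 132.8, 115.7 and 107.7 CPM in bTBI retinas, against 162.2, 163.9, 167.9, 161.7, 164.5 and 151.6 CPM in sham retinas. Sham retinas were close together at both timepoints apart from sham replicate 1 at 1 week, which was the highest. The mean was 196 ± 27.1 CPM in bTBI retinas and 275 ± 18.2 CPM in sham retinas at 1 week (SD, n = 6 each), and 114 ± 12.95 CPM in bTBI retinas and 162 ± 5.53 CPM in sham retinas at 5 weeks. The log2 fold change was -0.50 (SE 0.077) at 1 week and -0.51 (SE 0.055) at 5 weeks. Thy1 left about the same share of its sham level at both timepoints, 71.0% and 70.1%.

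Nrn1, the other GPI-anchored protein, was the least abundant of the genes. At 1 week it had 20.29, 28.23, 17.51, 22.06, 16.33 and 20.23 CPM in bTBI retinas 1 to 6, against 38.29, 32.65, 30.44, 33.91, 33.62 and 30.56 CPM in sham retinas. At 5 weeks it had 8.832, 12.45, 13.76, 16.86, 15.34 and 14.1 CPM in bTBI retinas, against 23.31, 21.75, 23.33, 21.67, 20.1 and 18.76 CPM in sham retinas. The groups did not overlap, but the gap was narrow at both timepoints, with bTBI replicate 2 closest to the sham retinas at 1 week and bTBI replicate 4 at 5 weeks. Means were 20.8 ± 4.20 CPM in bTBI retinas and 33.2 ± 2.88 CPM in sham retinas at 1 week, and 13.6 ± 2.76 CPM in bTBI retinas and 21.5 ± 1.80 CPM in sham retinas at 5 weeks (SD, n = 6 each). The log2 fold change was -0.67 (SE 0.10) at 1 week and -0.65 (SE 0.10) at 5 weeks, the lowest of the 5 genes at each timepoint and also the least precise. Among the genes called lower, Nrn1 ranked 19 of 147 by log2 fold change at 1 week, counted from the lowest, and 17 of 131 at 5 weeks. The 3′ end of Nrn1 overlaps Fars2 on the opposite strand, and the strand setting of the counting is not given in the sources used here, so reads of the shared stretch cannot be told apart.

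Nat8l, the NAA-forming enzyme, had 78.69, 95.62, 72.72, 78.93, 72.64 and 81.69 CPM in bTBI retinas 1 to 6 at 1 week, against 122.6, 110.3, 109.2, 114.5, 108.6 and 112.9 CPM in sham retinas. Nat8l at 5 weeks had 58.74, 58.31, 65.32, 69.24, 61.31 and 52.26 CPM in bTBI retinas, against 76.66, 81.67, 86.5, 79.24, 75 and 75.63 CPM in sham retinas. The gap between the groups was wider at 1 week than at 5 weeks, where bTBI replicate 4 came close to the lowest sham retina. Means were 80.0 ± 8.45 CPM in bTBI retinas and 113 ± 5.21 CPM in sham retinas at 1 week, and 60.9 ± 5.92 CPM in bTBI retinas and 79.1 ± 4.39 CPM in sham retinas at 5 weeks (SD, n = 6 each). The log2 fold change was -0.50 (SE 0.061) at 1 week and -0.38 (SE 0.054) at 5 weeks, where it was the smallest fall of the 5 genes.

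Cend1, the membrane protein of differentiated neurons, had 90.74, 111.3, 83.1, 94.32, 79.18 and 90.01 CPM in bTBI retinas 1 to 6 at 1 week, against 144.5, 134.6, 138.9, 129.9, 135.1 and 130.7 CPM in sham retinas. Cend1 at 5 weeks had 77.33, 73.8, 74.18, 80.82, 73.11 and 67.8 CPM in bTBI retinas, against 92.16, 104.7, 98.89, 103.9, 93.64 and 94.88 CPM in sham retinas. The bTBI retinas were widely spread at 1 week and close together at 5 weeks. Means were 91.4 ± 11.2 CPM in bTBI retinas and 136 ± 5.45 CPM in sham retinas at 1 week, and 74.5 ± 4.37 CPM in bTBI retinas and 98.0 ± 5.34 CPM in sham retinas at 5 weeks (SD, n = 6 each). The log2 fold change was -0.57 (SE 0.067) at 1 week and -0.39 (SE 0.043) at 5 weeks.

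Scrt1, the zinc finger repressor, had 93.29, 117.9, 80.72, 87.55, 84.3 and 83.99 CPM in bTBI retinas 1 to 6 at 1 week, against 147.2, 134.1, 139.5, 126.5, 124.9 and 138.8 CPM in sham retinas. Scrt1 at 5 weeks had 64.6, 63.83, 65.92, 71.35, 68.21 and 62.72 CPM in bTBI retinas, against 94.31, 97.76, 92.91, 99.25, 84.69 and 83.03 CPM in sham retinas. At 1 week bTBI replicate 2 stood well above the other bTBI retinas, and at 5 weeks the bTBI retinas were closer together than the sham retinas. Means were 91.3 ± 13.7 CPM in bTBI retinas and 135 ± 8.47 CPM in sham retinas at 1 week, and 66.1 ± 3.19 CPM in bTBI retinas and 92.0 ± 6.72 CPM in sham retinas at 5 weeks (SD, n = 6 each). The log2 fold change was -0.57 (SE 0.078) at 1 week and -0.47 (SE 0.046) at 5 weeks.

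Of the 5 genes, 1 (Cend1) had an entry in the promoter table used here (RefSeq, GRCm38.p6). Its window is shown as the regulatory sequence at hand for these genes. It spans chr7:141429513-141429812 on the - strand, 250 bases before the start and 50 after it, with the bases after the start in capitals. The start is that of RefSeq, which lies upstream of the start of Cend1 in the annotation used for the positions above, so the whole window lies upstream of that annotated gene.
Cend1: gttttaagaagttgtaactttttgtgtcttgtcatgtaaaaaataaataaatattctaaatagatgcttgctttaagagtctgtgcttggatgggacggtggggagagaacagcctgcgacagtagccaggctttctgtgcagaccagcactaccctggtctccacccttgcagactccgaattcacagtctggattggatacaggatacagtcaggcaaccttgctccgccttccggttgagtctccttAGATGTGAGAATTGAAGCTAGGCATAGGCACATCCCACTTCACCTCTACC
Neither strand of the window held CAGGTG, the letters that Snail and Scratch repressors are known to bind, which 20.2% of 32851 windows of the same length hold. Nor did it hold CANNTG (72.3% of windows, CAGGTG included), GGGCGG (35.7%) or TATAAA (13.6%).

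In the order of log2 fold change at 1 week, Nrn1 (-0.67) came first, then Cend1 and Scrt1 (both -0.57), then Thy1 and Nat8l (both -0.50). At 5 weeks the order was Nrn1 (-0.65), Thy1 (-0.51), Scrt1 (-0.47), Cend1 (-0.39) and Nat8l (-0.38), so Thy1 moved ahead of Scrt1 and Cend1. Neighbours in either order differed by 0.13 at most, and each of the 8 differences was smaller than the sum of its pair of standard errors. The ends of the order, Nat8l and Nrn1, lay 0.17 apart at 1 week and 0.27 apart at 5 weeks, more than that sum at both. Both genes of a pair were measured in the same retinas, which that sum ignores. Within retinas the standard error of each neighbouring difference was smaller, between 0.039 and 0.079. Some neighbours differed by more than that, such as Scrt1 and Cend1 at 5 weeks (0.08, SE 0.039), and others did not. The log2 fold change at 5 weeks minus that at 1 week was 0.18 (SE 0.080) for Cend1, 0.12 (SE 0.082) for Nat8l, 0.10 (SE 0.091) for Scrt1, 0.02 (SE 0.15) for Nrn1 and -0.01 (SE 0.095) for Thy1. The falls of Cend1, Nat8l and Scrt1 were smaller at 5 weeks in this sense, by amounts that were not tested. Against the median of all genes, which was 0.00 on the log2 scale at both timepoints, the 5 genes lay well below.

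**Figure D2:**
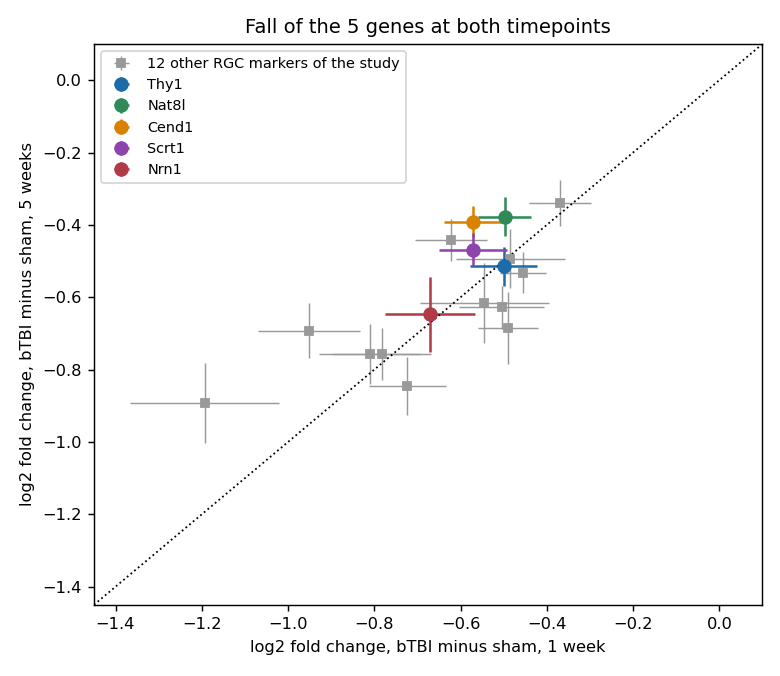
Log2 fold change (bTBI minus sham) at 1 week on the horizontal axis and at 5 weeks on the vertical axis for the 5 genes (coloured circles) and 12 other pan-RGC markers of the study (grey squares), with standard errors as bars and equal change on the dotted line. Thy1 and Nrn1 lie close to the line, while Cend1 (-0.57 and -0.39) and Nat8l (-0.50 and -0.38) lie above it.

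The spread among retinas differed between the genes. At 1 week the coefficient of variation was larger in bTBI retinas than in sham retinas for all 5 genes, between 10.6% (Nat8l) and 20.2% (Nrn1) in bTBI retinas and between 4.02% (Cend1) and 8.66% (Nrn1) in sham retinas. At 5 weeks it was 20.3% for Nrn1, 11.4% for Thy1, 9.73% for Nat8l, 5.86% for Cend1 and 4.82% for Scrt1 in bTBI retinas, against 8.37%, 3.41%, 5.54%, 5.45% and 7.31% in sham retinas for the same genes in that order. Nrn1 and Thy1 thus kept a wide spread among bTBI retinas at 5 weeks, Cend1 was about as variable in either group, and Scrt1 varied less in bTBI retinas than in sham retinas.

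At 1 week the 5 genes were high or low in mostly the same retinas. Averaged over the 5 genes, the level left at 1 week was 68.7%, 85.2%, 61.2%, 67.9%, 58.6% and 65.6% of the sham mean in bTBI retinas 1 to 6. bTBI replicate 2 was the highest bTBI retina for all 5 genes, between 82.1% (Cend1) and 87.4% (Thy1), and bTBI replicate 5 was the lowest for 4 of them, down to 49.1% for Nrn1. Scrt1 was the exception, lowest in bTBI replicate 3 at 59.7%. Sham replicate 1 was likewise the highest sham retina at 1 week for all 5 genes.

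At 5 weeks the averages were 64.7%, 68.6%, 73.8%, 81.6%, 73.8% and 67.1% of the sham mean in bTBI retinas 1 to 6. bTBI replicate 4 was the highest for all 5 genes, with 77.6% for Scrt1 at the low end and 87.5% for Nat8l at the high end. The lowest retina split the genes: it was bTBI replicate 1 for Thy1 (58.8%) and Nrn1 (41.1%), and bTBI replicate 6 for Nat8l (66.1%), Cend1 (69.2%) and Scrt1 (68.2%). In bTBI replicate 1 at 5 weeks Cend1 was still at 78.9%, so the genes ran from 41.1% to 78.9% within that retina, while in bTBI replicate 6 all 5 lay between 65.6% and 69.2%.

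**Figure D3:**
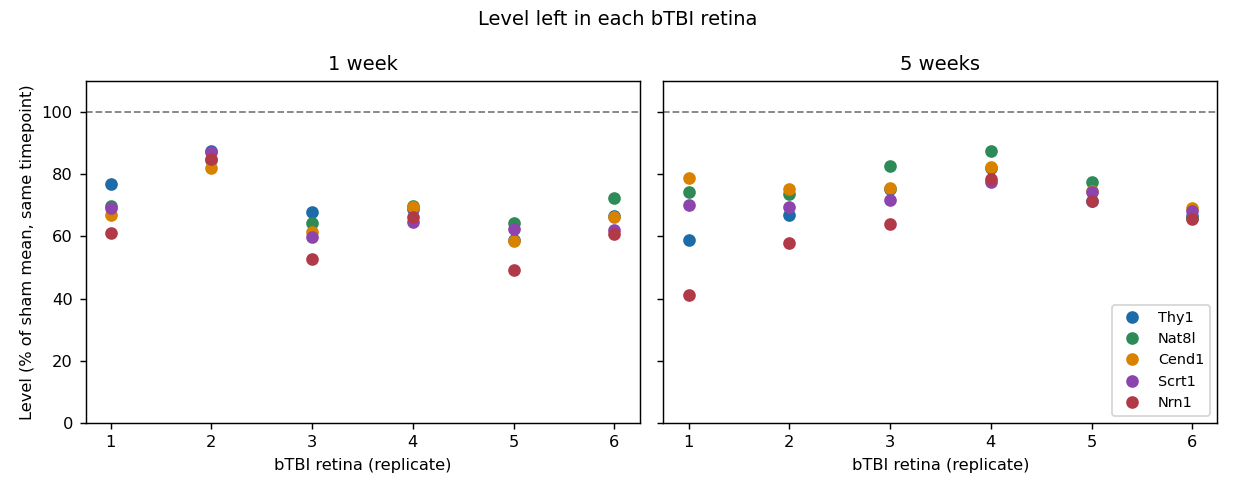
Level of each gene in every bTBI retina as a percentage of the sham mean at the same timepoint, with the sham mean as a dashed line at 100% and replicates along the horizontal axis (replicate numbers do not pair retinas across timepoints). At 1 week the genes move together from retina to retina, with bTBI replicate 2 highest at 85.2% on average; at 5 weeks they fan out most in bTBI replicate 1, where Nrn1 is at 41.1% and Cend1 at 78.9%.

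Ratios of 2 of the genes within a retina cancel what they share. In all 20 comparisons, 10 pairs at each timepoint, the ratios in bTBI retinas overlapped with those in sham retinas. The largest differences in log2 ratio involved Nrn1: Nat8l over Nrn1 was higher in bTBI retinas by 0.17 (SE 0.063) at 1 week and 0.27 (SE 0.12) at 5 weeks, where 4 of the 6 bTBI ratios exceeded every sham ratio each time. Thy1 over Nat8l differed by 0.00 (SE 0.049) at 1 week and -0.14 (SE 0.052) at 5 weeks, where 5 of 6 bTBI retinas were below every sham retina. Cend1 over Scrt1 differed by 0.00 (SE 0.045) at 1 week and 0.08 (SE 0.039) at 5 weeks.

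The study's other pan-RGC markers fell beside them. Of 12 such markers (neurofilament, RNA-binding and Pou4f genes among them), 10 were called lower at 1 week and 12 at 5 weeks (0.985% and 0.823% of all genes were), with a median log2 fold change of -0.58 and -0.66. These markers were picked by the study from the same samples and are not independent evidence. The study's markers of RGC subtypes, such as Opn4, Kcng4 and Jam2, are not in this list, and the study did not find all of those lower. Nefl, the light neurofilament chain, averaged 315 ± 75.7 CPM in bTBI retinas and 543 ± 49.5 CPM in sham retinas at 1 week (limma log2 fold change -0.81, adjusted p = 0.000609), and 170 ± 32.3 CPM in bTBI retinas and 283 ± 8.56 CPM in sham retinas at 5 weeks (-0.76, limma adjusted p = 1.0e-05; SD, n = 6 each). Relative to the mean log2 level of the 12 markers, Nat8l was higher by 0.26 (SE 0.053) and Cend1 by 0.25 (SE 0.072) in bTBI retinas at 5 weeks, and for both genes all 6 bTBI values exceeded every sham value. For Scrt1 that difference was 0.17 (SE 0.059), for Thy1 0.13 (SE 0.024) and for Nrn1 -0.01 (SE 0.076). At 1 week it was 0.16 for Thy1 and Nat8l, 0.09 for Cend1 and Scrt1 and -0.01 for Nrn1, and the groups overlapped for all 5. Nrn1 therefore fell by about as much as the 12 markers at both timepoints. The other genes fell by less on average at both, with groups apart only for Nat8l and Cend1 at 5 weeks. For Thy1 at both timepoints and Scrt1 at 5 weeks, 5 of 6 bTBI values exceeded every sham value. The 2 contrasts that chose the genes enter these differences, so none was tested.

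The rule used group differences and not the deviations of single retinas from the mean of their group. Genes chosen for a shared fall may still deviate together, so the correlations below are not independent of the choice. Over 24 retinas, log2(CPM + 1) after removal of group means was positively correlated for all 10 pairs, with Pearson r between 0.53 and 0.85 (median 0.74). A permutation test within groups was run (100000 resamples, two-sided, Benjamini-Hochberg over 10 pairs). In it 10 of 10 passed an adjusted p of 0.05 with Pearson r and 7 of 10 with Spearman rho. Here and below, rho is taken from ranks within each group, centred and pooled, and not from the 24 deviations ranked together. Such ranks give every group the same spread, so a rho below r cannot be read as a weaker relation. Against 14390 genes with a mean of at least 1 CPM at both timepoints, the median r of each of the 5 genes was 0.00. The 5th to 95th percentiles ran from -0.56 to 0.59 for Thy1 and within -0.48 and 0.51 for the other 4. Deviations of genes from the same retina share its library and depth.

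The closest pair was Thy1 and Nrn1, the GPI-anchored proteins (r = 0.85, permutation adjusted p = 4.0e-04; rho = 0.56, permutation adjusted p = 0.0188). It gave r = 0.86 at 1 week and r = 0.87 at 5 weeks, and 0.75 without the 2 retinas farthest from the median of Thy1. Cend1 and Scrt1 followed (r = 0.81, permutation adjusted p = 4.0e-04; rho = 0.63, permutation adjusted p = 0.015), with r = 0.86 at 1 week, 0.68 at 5 weeks and 0.67 without the 2 farthest retinas. Nat8l and Cend1 gave r = 0.80 (permutation adjusted p = 4.0e-04; rho = 0.53, permutation adjusted p = 0.0243), with 0.89 at 1 week, 0.72 at 5 weeks and 0.63 without the 2 farthest.

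The loosest pair was Cend1 and Nrn1 (r = 0.53, permutation adjusted p = 0.0297; rho = 0.29, permutation adjusted p = 0.219). Its r hung on a few retinas: it was 0.20 without bTBI replicates 2 and 5 of 1 week, and 0.78 without bTBI replicate 1 of 5 weeks. By timepoint it was 0.94 at 1 week and 0.01 at 5 weeks, with that retina included. Among the 6 bTBI retinas of 1 week Cend1 and Nrn1 ran almost in step (r = 0.999), and among the 6 bTBI retinas of 5 weeks they did not (r = -0.05). Thy1 and Cend1 likewise gave 0.88 at 1 week and 0.28 at 5 weeks (r = 0.68 over both, and 0.82 without bTBI replicate 1 of 5 weeks).

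Taken by timepoint, 10 of 10 pairs passed with the 12 retinas of 1 week alone and 3 of 10 with the 12 retinas of 5 weeks alone (Thy1 with Nrn1, Nat8l with Cend1 and Nat8l with Scrt1). Whether r differed between the timepoints was not tested. Leaving out bTBI replicate 2 of 1 week left 8 of 10 pairs, and leaving out bTBI replicates 3, 5 and 6 of 1 week, rich in oligodendrocyte or lens transcripts, left 7 of 10.

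**Figure D4:**
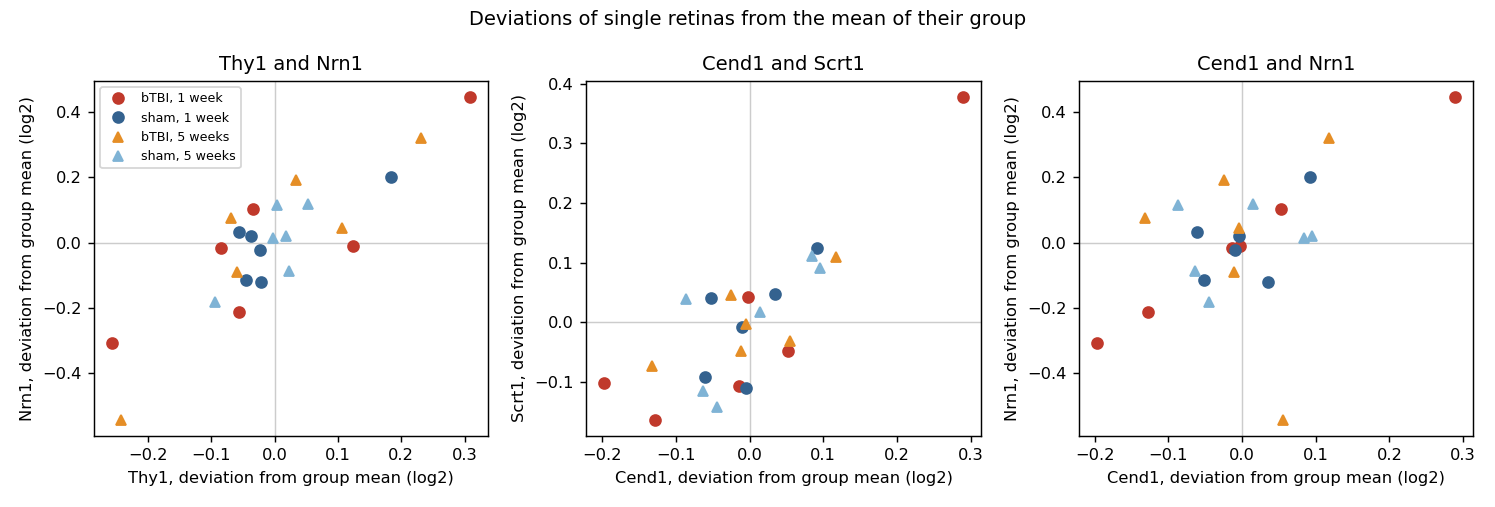
Deviation of each of 24 retinas from the mean of its group on the log2(CPM + 1) scale, for 3 pairs of genes; circles are 1 week, triangles 5 weeks, with bTBI in red and orange and sham in blue. Thy1 and Nrn1 (r = 0.85) and Cend1 and Scrt1 (r = 0.81) line up, while for Cend1 and Nrn1 (r = 0.53) the retina lowest in Nrn1, bTBI replicate 1 of 5 weeks, is above average in Cend1.

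Deviations were also set against the mean level of 7 marker lists, 35 relations in all. The RGC markers fell in the same contrasts, so their correlations with the 5 genes are not independent of the choice either. With the 12 RGC markers, r was 0.90 for Thy1, 0.87 for Nrn1, 0.79 for Nat8l, 0.75 for Cend1 and 0.73 for Scrt1, and all 5 passed (permutation adjusted p between 3.5e-04 and 0.00959). With rho from ranks within groups, only Nrn1 passed (rho = 0.71, permutation adjusted p = 0.0224), and rho of the other 4 genes was 0.50 to 0.63. With the amacrine, Müller glia, microglia, lens and oligodendrocyte lists, none of 25 relations passed, and r ran between -0.56 (Scrt1 with microglia) and 0.03. Nat8l was negatively correlated with the rod list (r = -0.42, permutation adjusted p = 0.0339). That relation did not pass with rho from ranks within groups (-0.23, permutation adjusted p = 0.991).

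**Figure D5:**
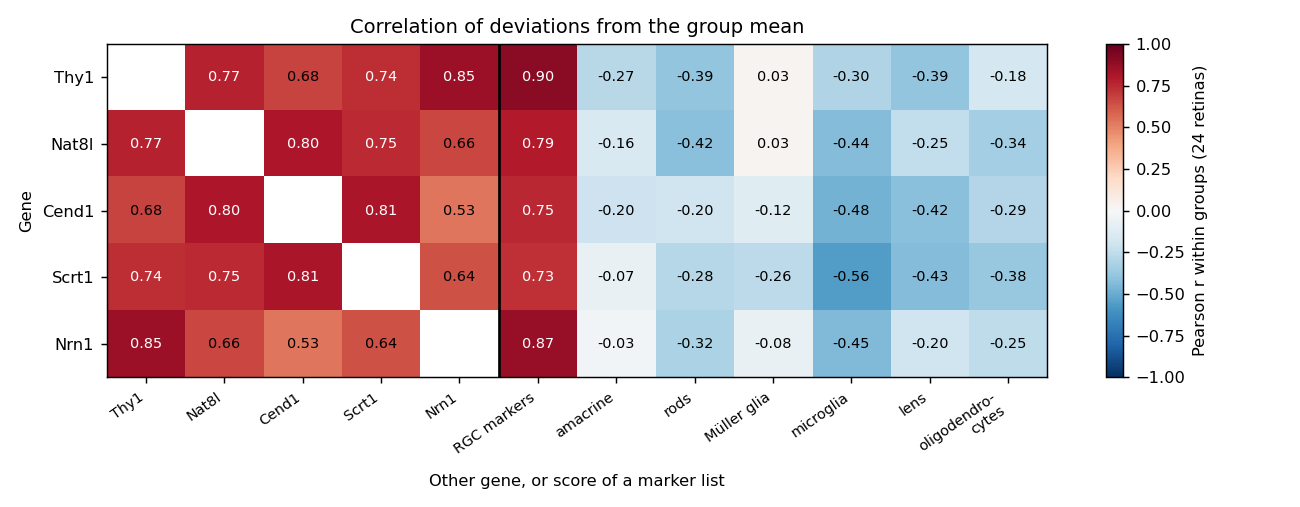
Pearson r of deviations from the group mean over 24 retinas, for each of the 5 genes (rows) with the other 4 genes and with the mean level of 7 marker lists (columns); the diagonal is left blank. The genes correlate with each other (0.53 to 0.85) and with the RGC markers (0.73 to 0.90), and r with the other lists runs from -0.56 to 0.03.

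The genes most like each of the 5 were taken by the same r over 24 retinas among 14390 genes. Thy1 was closest to Tmem163, a zinc transporter of synaptic vesicles (r = 0.93), Stmn2, a regulator of microtubules in growing axons (0.92), and Nefl (0.92). Nrn1 was closest to Calb2, the calcium-binding protein calretinin (0.93), Nefl (0.91) and Nell2, a secreted neuronal protein (0.88). Thy1 and Nrn1 thus shared Nefl.

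Nat8l and Cend1 were both closest to Cplx1, a complexin of the synaptic release machinery (r = 0.92 and 0.88). Nat8l came next to Gabarapl1, of the autophagy machinery (0.86), and Sult4a1, a sulfotransferase-like protein of neurons (0.85), and Cend1 was also close to Zwint, a kinetochore protein (0.84). Scrt1 was closest to Dmtn, an actin-binding protein (0.86), Shank3, a postsynaptic scaffold (0.85), and Lynx1, a GPI-anchored modulator of nicotinic receptors (0.85).

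Of the 12 different genes named here, Gabarapl1 was called at neither timepoint (limma log2 fold change -0.16, adjusted p = 0.0501 at 1 week; -0.06, adjusted p = 0.586 at 5 weeks). Zwint, Shank3 and Calb2 were called at 5 weeks but not at 1 week (limma adjusted p = 0.00618, 0.0367 and 0.00529 there), and the other 8 were called lower at both. Over all genes 0.985% were called lower at 1 week and 0.823% at 5 weeks. The 12 genes were taken for their likeness to genes chosen for this fall, so nothing is read from the count. For Cplx1 the log2 fold change was -0.92 at 1 week (limma adjusted p = 0.000284) and -0.83 at 5 weeks (limma adjusted p = 3.3e-07), further down than any of the 5 genes.

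Genes that share a role with the 5 were counted by list, beside the share called over all genes. Of 41 other GPI-anchored surface proteins measured at 1 week, 3 were called lower and none higher (Lynx1, Opcml and Iglon5), and of 42 at 5 weeks 4 were lower and none higher (Lynx1, Cntn2, Opcml and Lypd6), against backgrounds of 0.985% and 0.823%. The median log2 fold change of that list was -0.10 at 1 week and -0.05 at 5 weeks, against -0.50 and lower for Thy1 and Nrn1. Lynx1 averaged 231 ± 19.4 CPM in bTBI retinas and 321 ± 13.1 CPM in sham retinas at 1 week (limma log2 fold change -0.48, adjusted p = 0.000174), and 174 ± 10.5 CPM in bTBI retinas and 226 ± 9.40 CPM in sham retinas at 5 weeks (-0.37, limma adjusted p = 7.0e-06; SD, n = 6 each). For Opcml, an adhesion protein, the log2 fold change was -0.46 at 1 week (limma adjusted p = 0.000517) and -0.34 at 5 weeks (limma adjusted p = 0.00322). Cntn2, a contactin of axons, was called at 5 weeks (-0.42, limma adjusted p = 0.000807) and not at 1 week (-0.19, limma adjusted p = 0.631). At 1 week 4 of its 6 bTBI values lay below every sham value, and 1 lay above them all at 27.4 CPM. That value is from bTBI replicate 3, the retina rich in oligodendrocyte transcripts, and the part of those transcripts in it was not tested. The GPI-anchored count at 5 weeks was 2 in 9 of the 12 fits with 1 retina left out, and at 1 week it was 5 without bTBI replicate 2. Nrn1l, the paralog of Nrn1, was not analysed here.

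Around Nat8l, 1 of 13 genes of NAA and NAAG metabolism was called at 1 week and 1 of 12 at 5 weeks, both times Rimkla and both times lower. Over all genes 2.25% were called in either direction at 1 week and 0.835% at 5 weeks. Rimkla is a synthase that joins NAA and glutamate into the neuropeptide NAAG, so it acts on the product of Nat8l. It averaged 50.9 ± 9.14 CPM in bTBI retinas and 72.8 ± 4.62 CPM in sham retinas at 1 week (SD, n = 6 each), a log2 fold change of -0.52 (SE 0.092, limma adjusted p = 0.00237). At 5 weeks it averaged 41.2 ± 3.41 CPM in bTBI retinas and 54.7 ± 4.83 CPM in sham retinas, a log2 fold change of -0.40 (SE 0.059, limma adjusted p = 0.000302). These values lay close to those of Nat8l, -0.50 and -0.38, and for both genes every bTBI retina was below every sham retina. The call of Rimkla held in all 12 fits with 1 retina left out at 5 weeks, but in 3 of 12 at 1 week (without bTBI replicate 2 or 4 or sham replicate 4).

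The second NAAG synthase gene, Rimklb, was not called (-0.18, limma adjusted p = 0.171 at 1 week; 0.01, limma adjusted p = 0.959 at 5 weeks). The NAAG peptidases were not called either: the log2 fold change of Folh1 was 0.27 at 1 week (limma adjusted p = 0.1) and 0.07 at 5 weeks (limma adjusted p = 0.782), and that of Naalad2 was 0.30 (limma adjusted p = 0.285) and -0.06 (limma adjusted p = 0.923). Aspa, the NAA hydrolase of oligodendrocytes, was low at 1 week, with 1.52 ± 0.861 CPM in bTBI retinas and 0.831 ± 0.449 CPM in sham retinas (limma adjusted p = 0.288), and it was not in the 5 week table. The median log2 fold change of the NAA and NAAG list was -0.01 at 1 week and -0.04 at 5 weeks.

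With 2.25% of all genes called at 1 week and 0.835% at 5 weeks, lists of this size may hold no call without differing from other genes, and the counts of 0 that follow are given as values only. Beside Scrt1, limma called 0 of 16 genes of the Snail and Scratch family and of neuronal zinc finger and basic helix-loop-helix factors at either timepoint (6 at 1 week and 1 at 5 weeks had an unadjusted p under 0.05), with median log2 fold changes of 0.01 and 0.04. Its closest relative Scrt2 averaged 28.9 ± 1.65 CPM in bTBI retinas and 32.1 ± 3.24 CPM in sham retinas at 1 week (-0.14, limma adjusted p = 0.288), and 19.9 ± 2.66 CPM in bTBI retinas and 20.2 ± 2.44 CPM in sham retinas at 5 weeks (-0.02, limma adjusted p = 0.966). Myt1l, a neuronal zinc finger factor named after its values were seen, came close at 5 weeks (-0.24, limma adjusted p = 0.00573) and was called in 3 of the 12 fits with 1 retina left out. Beside Cend1, limma called 0 of 20 genes of cell cycle exit and of Cend1 partners at either timepoint (5 at 1 week and 0 at 5 weeks had an unadjusted p under 0.05; medians 0.04 and 0.02). Cdkn1a, an inhibitor of cyclin-dependent kinases also named after its values were seen, came closest, with 10.7 ± 2.61 CPM in bTBI retinas and 5.49 ± 1.56 CPM in sham retinas at 1 week (0.86, limma adjusted p = 0.00576). It was called without bTBI replicate 6 or sham replicate 1, and the list held 1 call in 3 of the 12 fits with 1 retina left out, the other being without sham replicate 4. Beside Nrn1, limma called 0 of 13 activity-regulated and neurotrophic genes at 1 week (3 at an unadjusted p under 0.05) and 0 of 14 at 5 weeks (1 at an unadjusted p under 0.05), with medians of 0.09 and 0.06.

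Amacrine cells are the other neurons of the ganglion cell layer. Of their 9 markers limma called 0 at either timepoint, beside 2.25% and 0.835% of all genes (1 at 1 week and 0 at 5 weeks had an unadjusted p under 0.05), with a median log2 fold change of -0.05 at 1 week and 0.05 at 5 weeks.

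Levels of different genes are compared per kb of exon. At 1 week the order was Thy1, Cend1, Scrt1, Nat8l and Nrn1, with 65.3, 51.5, 20.8, 12.0 and 9.24 CPM per kb in bTBI retinas and 91.9, 76.4, 30.9, 16.9 and 14.8 CPM per kb in sham retinas. Thy1 and Cend1 overlapped in bTBI retinas at 1 week, from 54.1 to 80.3 CPM per kb for Thy1 and from 44.6 to 62.7 for Cend1, and did not overlap in sham retinas. At 5 weeks Cend1 and Thy1 were close, with 42.0 and 37.9 CPM per kb in bTBI retinas and 55.2 and 54.1 CPM per kb in sham retinas, and their ranges overlapped in both groups. Nat8l and Nrn1 overlapped at 1 week, from 10.9 to 14.3 CPM per kb for Nat8l and from 7.26 to 12.6 for Nrn1 in bTBI retinas, and from 16.3 to 18.4 for Nat8l and from 13.5 to 17.02 for Nrn1 in sham retinas. At 5 weeks Nat8l was above Nrn1 in every retina of the same group, and Scrt1 stood apart from its neighbours in all 4 groups.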

How the data were processed

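RNA of whole retinas was sequenced as stranded poly(A) libraries on 1 platform. Alignment by the authors was with STAR to GRCm38, counting with featureCounts and testing with edgeR (FDR under 0.005). The deposited signal values are CPM-like: the authors scaled each retina's counts by its effective library size, and low genes had been filtered out. Every value was a whole multiple of a step to within 0.01 of it, which gave the depth. Depth limits the precision of low genes most, and genes removed by the filter were not analysed here.

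Symbols were taken from the annotation of GRCm38 (14907 of 14922 IDs matched at 1 week and 15902 of 15920 at 5 weeks). The bTBI and sham retinas of each timepoint (6 and 6) were compared with limma 3.58.1 in R 4.3.3 on log2(CPM + 1), with a trended prior, over all genes of the timepoint, after a test of the script on simulated data. For low genes this scale gives fold changes that are too small. Correlations were computed in Python 3.11.15 with SciPy 1.17.1. Replicate numbers did not pair the retinas. Alternatives were other scalings, pseudocounts, filters, priors, thresholds, a replicate block and left-out retinas. Named genes were the 5 genes, the 3 genes most like each (1 of them is not reported here), set relatives of the 5, the 2 genes with the smallest p of each list among those called, and any gene behind a count of 5 or fewer. The 5 genes and all lists were chosen with earlier results of these data known.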

Additional observations from a re-analysis of the deposited data

Results flagged for a closer look

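A retina was listed where its gap to the nearest other retina, over the range of its group of 6, exceeded Dixon's 95% critical value. Of 48 groups tested, 6 held such a retina, and chance gives about 1 in 20. Of the 20 groups of levels of the 5 genes, 2 did. In bTBI replicate 2 at 1 week Scrt1 reached 117.9 CPM, against 93.29 CPM in the next bTBI retina. In sham replicate 1 at 1 week Thy1 reached 312.2 CPM, against 270.7 CPM in the next sham retina. Without bTBI replicate 2 the log2 fold change of Scrt1 at 1 week was -0.65, against -0.57 with it. The other retinas stood apart in the mean log2 level of a marker list. For oligodendrocyte markers at 1 week it was 9.254 in bTBI replicate 3 (next 5.764) and 4.094 in sham replicate 3 (next 3.799), and at 5 weeks it was lowest at 4.193 in bTBI replicate 4 (next 4.311). For rod markers at 5 weeks it was lowest at 11.75 in sham replicate 3 (next 11.84).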

How the results depend on the processing

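All 205 recomputed log2 fold changes of the 5 genes, over all alternatives and both timepoints, kept their sign and moved by less than the spread between replicates. At 1 week 2 of the 5 genes were called without bTBI replicates 5 and 6 together, with Thy1, Scrt1 and Nrn1 lost, and their log2 fold changes were then -0.41, -0.52 and -0.59. At 5 weeks 3 were called with a prior without a trend, with Nat8l and Nrn1 lost. All 5 were called with any 1 retina left out, at either timepoint. The same contrasts chose the genes, so their signs and calls in these refits are a description and not support. Over all genes, 336 calls at 1 week became 112 without bTBI replicates 5 and 6, 685 with all 24 retinas in 1 fit and 907 at a threshold of 0.05, and 189 (without sham replicate 2) to 486 (without bTBI replicate 2) with 1 retina left out. At 5 weeks 133 became 56 with a prior without a trend, 75 with all 24 retinas in 1 fit and 326 at a threshold of 0.05, and 88 (without sham replicate 2) to 163 (without bTBI replicate 4) with 1 retina left out. In the 6 gene lists together, 14 calls at 1 week became 25 at a threshold of 0.05 and 10 to 18 with 1 retina left out, and 17 calls at 5 weeks became 10 with a prior without a trend, 11 with all 24 retinas in 1 fit and 13 to 18 with 1 retina left out. The 10 correlated pairs became 3 with the 12 retinas of 5 weeks alone, and 8 to 10 with 1 retina left out, 8 without bTBI replicate 2 of 1 week. The causes of these changes were not tested, and fits that left retinas out also had fewer retinas.

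Retinas with the same replicate number did not as a rule deviate together. Their r was 0.541 for replicate 1 at 1 week, between -0.253 and 0.166 for the others, and between -0.112 and 0.151 at 5 weeks. For replicate 1 at 1 week and replicate 3 at 5 weeks, the sham retina most like the bTBI retina had its number. With a replicate block, 5 of 5 genes were called at both timepoints, with 293 genes called in all at 1 week and 134 at 5 weeks, and the calls in the 6 lists were 11 and 16. The count test on reads recovered from the steps of the values was not run. Genes with low counts had been removed before deposit, and their effect was not analysed here.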
